A study of Mus musculus with 4 samples.

Results

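Histone genes and the annotated features that lie on the strand opposite them were described in RNA-seq counts of T-helper 2 (Th2) cells of the mouse. Th2 cells are CD4 T cells that secrete the cytokines IL-5, IL-13 and IL-4. The set holds 80 of the 50600 gene identifiers counted. It comprises 68 clustered histone genes, taken by their symbol (Hist, a cluster number from 1 to 4, then h), 8 genes of histone variants, namely H1f0, H2afj, H2afz, H2afx, H2afy, H2afv, H3f3a and H3f3b, and 4 features that face a histone gene on the other strand, namely Gm44364, Gm17275, Gm44492 and Gm20628. Of the clustered genes, 65 are annotated as protein-coding and 3 (Hist3h2bb-ps, Hist1h2aj and Hist1h2al) as pseudogenes. Of 70 clustered symbols in the annotation, 68 had a row in the files, and Hist1h2bh and Hist1h2bm were not analysed here.

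The samples were 4 libraries of Th2 primary cells from strain C57BL/6NJ, which the file headers place at 72 h and after a sort. By the labels they are biological replicates, each a separate biosample, and all 4 carry the same donor identifier. They record the sex as not collected and the age and developmental stage as unknown. All 4 form a single group with no control condition, so values are compared between genes within a library and between libraries, and replicate numbers carry no order. The assay is labelled total RNA-seq, whereas the title of the linked library protocol speaks of poly(A) RNA.

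Histones package DNA into nucleosomes, whose core holds H2A, H2B, H3 and H4 and whose linker is bound by H1. The clustered genes are read mainly in S phase, mostly have no introns, and typically give mRNAs that end in a stem-loop bound by SLBP instead of in a poly(A) tail. In the files 5 of the 68 have a model with more than 1 exon. The variant genes mostly lie apart from the clusters and are read throughout the cell cycle. They mostly give polyadenylated mRNAs whose proteins replace the clustered histones at particular places or times. On chromosome 6, H2afj (136808244-136810074) lies near Hist4h4 (136801553-136804415), the only Hist4 gene of the set.

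The sequences that set the clustered genes apart were read from the GENCODE M21 transcripts. A perfect hairpin with an arm of 6 bases, a loop of 4 bases and the reverse complement of the arm was searched in the transcripts of the 68 clustered genes, on the strand of the gene. The 6 most shared hairpins were kept, and the 5 of these whose loop starts with TTT are shown, since they mark the mRNA ends described above. The capitals mark the paired arms. Rarer hairpins are not listed, so the counts of genes that follow cover these sequences only.
shared by 24 clustered genes: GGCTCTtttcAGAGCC
shared by 7 clustered genes: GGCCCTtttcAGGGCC
shared by 6 clustered genes: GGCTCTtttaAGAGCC
shared by 2 clustered genes: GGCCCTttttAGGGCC
shared by 2 other clustered genes: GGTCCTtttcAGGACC

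The 5 hairpins together were found in 41 of the 68 clustered genes (60.3%), in 0 of the 8 variant genes, and in 46 of all 55450 genes searched (0.083%). Among the clustered genes they were found in 11 of 13 H4 genes, 4 of 6 H1 genes, 8 of 12 H3 genes, 10 of 20 H2A genes and 8 of 17 H2B genes. A gene without a match is one whose annotated transcript does not hold these letters. Own-strand counts were present for 16 of the 41 clustered genes with a hairpin and for 5 of the 27 without. The counts were made over exons of the earlier release M13, which can be shorter than the M21 transcripts, so a hairpin can lie outside the counted exons. Own strand here means the strand assigned under strand option 1 of the counting, and the strand that the kit reads is not stated.

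All 20 clustered H2A genes, and the variant genes H2afj and H2afx, had an exon facing an annotated exon on the other strand. Most of these opposite features are short, are annotated as miRNA and repeat the H2A coding sequence in reverse. The sequences of 4 of them are shown 5′ to 3′ on the strand of the feature, because they show how much these features share. Capitals mark the bases at which Gm44335 and Gm44492 differ from Gm44364, whose own sequence has no capitals, and the last feature faces another window of the coding sequence and is not marked.
Gm44364: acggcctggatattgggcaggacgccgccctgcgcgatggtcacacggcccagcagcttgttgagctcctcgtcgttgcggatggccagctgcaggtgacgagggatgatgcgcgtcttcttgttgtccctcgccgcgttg
Gm44335: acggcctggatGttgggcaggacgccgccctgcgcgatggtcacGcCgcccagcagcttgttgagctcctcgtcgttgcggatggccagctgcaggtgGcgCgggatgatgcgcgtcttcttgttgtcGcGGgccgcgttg
Gm44492: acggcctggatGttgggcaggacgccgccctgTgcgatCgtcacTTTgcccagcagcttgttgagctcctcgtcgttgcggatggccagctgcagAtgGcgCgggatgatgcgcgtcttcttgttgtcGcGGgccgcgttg
Gm44394: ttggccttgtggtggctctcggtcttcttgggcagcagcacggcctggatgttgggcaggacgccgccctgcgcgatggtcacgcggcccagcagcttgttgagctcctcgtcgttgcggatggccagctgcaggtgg

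Gm44364 (mm10 chr6:136808543-136808683, minus strand) lies wholly within the coding sequence of H2afj, Gm44335 (chr9:44334965-44335105, minus strand) within that of H2afx, and Gm44492 (chr3:96220501-96220641, plus strand) within that of Hist2h2ac. Each is 141 bases long and faces coding bases 204 to 344 of its histone gene, counted from the first base of the start codon. Gm44335 differs from Gm44364 at 8 of the 141 bases and Gm44492 at 12. Gm44394 (chr13:23570726-23570863, plus strand) is 138 bases long and faces coding bases 246 to 383 of Hist1h2ae. Its sequence is shared, base for base, by 8 features opposite 8 different H2A genes.

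The libraries were shallow, with total gene counts from 1274431 to 1857433, so that 3 counts, the upper limit that a count of 0 allows, correspond to 1.62 to 2.35 counts per 1000000 counts (CPM) in a library. The share of all counts that fell on genes without an opposite exon differed between libraries, at 16.4%, 8.54%, 9.14% and 20.1% in replicates 1 to 4. The T cell markers Cd3e, Cd3d, Cd3g, Cd4, Cd2 and Cd5 had counts in every library (6 of 6, summed count 113 to 599), as did the Th2 markers Il4, Il5, Il13 and Gata3 (4 of 4, summed count 157 to 362). Of the markers of other T-helper types, 3 of 4 had a count, with a summed count of 11 to 49 and Il17a at 0. The B cell marker Cd79a had 2 to 41 counts. Of the myeloid markers 1 of 3 had a count (Csf1r, 542 to 827) and of the red cell markers 1 of 3 (Alas2, 11 to 32). Ms4a1, Lyz2, Itgam, Hba-a1 and Hbb-bs were at 0 in all 4 libraries. Csf1r and Alas2 have an exon opposite another gene.

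Under strand option 1, the clustered histone genes had few counts on their own strand, while all 8 variants were detected in every library. The sources used here do not state the strand that the kit reads, so a low count is not shown to be a low level of histone mRNA. A count in at least 1 library was found for 21 of the 68 clustered genes (30.9%), and a count in all 4 libraries for 1 of them (1.47%). Over all genes of the files these shares were 32.8% and 17.5%, over protein-coding genes 56.0% and 32.1%, and over the 1525 protein-coding genes with a single exon 22.7% and 9.25%. The share of clustered genes with any count was thus above that of single-exon coding genes, and the share with a count in all 4 libraries below it. The difference between these shares was not tested.

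Summed over all 68 genes, the clustered genes had 20, 25, 17 and 18 counts in replicates 1 to 4, and the variants 541, 265, 194 and 453. As CPM with 95% Wilson intervals, the clustered genes summed to 11.2 (7.27 to 17.3), 13.5 (9.12 to 19.9), 11.8 (7.34 to 18.8) and 14.1 (8.93 to 22.3), and the variants to 304 (279 to 331), 143 (126 to 161), 134 (117 to 154) and 355 (324 to 390). The 4 intervals of the clustered sum overlap, whereas those of the variant sum in replicates 1 and 4 lie above those in replicates 2 and 3. Replicates 1 and 4 are also the libraries in which genes without an opposite exon held the larger share of counts, and the part of that in the variant sum was not tested. These intervals cover counting error only.

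TPM divides the counts of a gene by its exon length, and the result by the sum of such values over all genes of the library. On this scale the median clustered gene was at 0 in each library, and the median variant at 20.2, 7.69, 7.69 and 17.9 TPM in replicates 1 to 4. On the log2(TPM + 1) scale the clustered median minus the variant median was -4.40, -3.11, -3.11 and -4.22, with a mean of -3.71 ± 0.70 (SD, n = 4). Because the clustered median is 0, the size of this difference is set by the variants and by the pseudocount of 1, and it is given as a description.

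**Figure D1:**
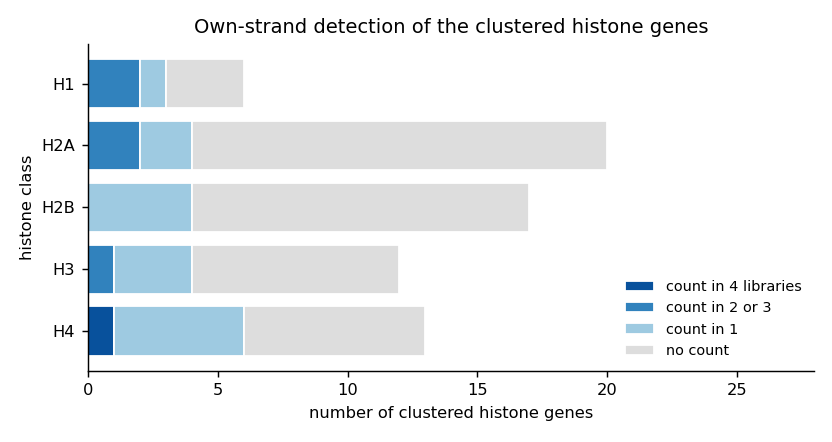
Number of clustered histone genes (x axis) of each histone class (y axis) with a count on their own strand in 4, in 2 or 3, in 1 or in none of the 4 Th2 libraries. Only 1 gene, of class H4, has a count in all 4, and the grey bars are the 47 genes with no count.

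By class, counts were present for 3 of 6 genes of the linker histone H1, 4 of 20 of H2A, 4 of 17 of H2B, 4 of 12 of H3 and 6 of 13 of H4, as the bar chart of detection by class shows. By cluster, they were present for 13 of 54 genes of the large Hist1 cluster, 7 of 10 of Hist2, 1 of 3 of Hist3 and 0 of 1 of Hist4. Of the 21 genes, 15 had counts in a single library and 5 in 2 or 3 libraries. No clustered gene exceeded 7 counts in any library.

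Hist1h4i, which encodes H4 (chr13:22040636-22041362, minus strand, no opposite exon), had 4, 1, 5 and 3 counts in replicates 1 to 4, or 4.42 ± 2.43 TPM (SD, n = 4). It was the clustered gene with the highest total, 13 counts, and the only one seen in all 4 libraries. Hist1h1e, a linker histone gene, had 4 counts in each of replicates 1 and 2 and 0 in replicates 3 and 4. For Hist1h1c, another linker histone gene, 2 counts were found in replicate 2, 2 in replicate 4 and none elsewhere.

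Several clustered genes owed all of their counts to a single library. Hist1h4b, an H4 gene, had 7 counts in replicate 3 and none elsewhere, while the antisense gene 4930558J22Rik that faces 223 of its bases had 15, 28, 67 and 14. Hist3h2a, an H2A gene, had 6 counts, all in replicate 1, and its neighbour on the same strand, Trim17, shares 708 of its 2146 bases. Hist1h3c, an H3 gene, had 5 counts and Hist1h4c, an H4 gene, 3 counts, all in replicate 2.

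In the Hist2 cluster the H3 gene Hist2h3b had 0, 1, 4 and 1 counts. Hist2h2aa1 and Hist2h2aa2, a duplicated pair of H2A genes, had 0, 4, 0 and 4 counts and 1, 0, 0 and 2 counts. Fragments with several matches were not counted. A 50-base window was called unique if no annotated transcript from another locus held it on either strand, and genes that overlap the gene itself were left aside. Only 3.72% of the windows of Hist2h2aa1 and 0% of those of Hist2h2aa2 were unique, so their split is uncertain. The remaining 11 clustered genes with a count had 1 or 2 counts in all.

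Sequence shared with sister genes differs widely within the clusters. Counts were present for 14 of the 36 clustered genes with more than 50% of their windows unique, for 6 of the 31 with a share above 0 and up to 50%, and for the 1 gene with none. The windows come from M21 transcripts, which can be longer than the exons counted. Hist1h1d has 7376 windows and 744 counted bases, and Hist1h2ac 2433 windows and 476 counted bases, so the shares need not describe the counted exons. Fragments that fit exons of 2 genes on the same strand were not assigned, and the effect of this on the clustered genes was not tested. Hist2h3c1 lies wholly within exons of Gm20634, Hist2h2aa1 shares 529 of its 586 bases with it, and Hist2h2bb shares 226 of its 381 bases with Gm42743.

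The 8 variants spanned a wide range of levels. The plot of TPM by variant and library shows that replicates 1 and 4 lay above replicates 2 and 3 for 6 of them, the exceptions being H2afx and H2afv. The share of all genes with this order was not tabulated, so it is no result about the variants. The TMM size factors, which TPM does not use, shifted the library totals by 0.12, -0.23, -0.12 and 0.24 in log2 in replicates 1 to 4, in the same order. In order of mean TPM they were H1f0, H3f3b, H2afz, H2afy, H2afj, H2afx, H2afv and H3f3a. Each mean differed from the next in this order by less than the larger of their 2 SDs over the libraries, except for H2afv, at 5.41 ± 2.68 TPM, and H3f3a, at 1.74 ± 1.21 TPM (SD, n = 4).

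**Figure D2:**
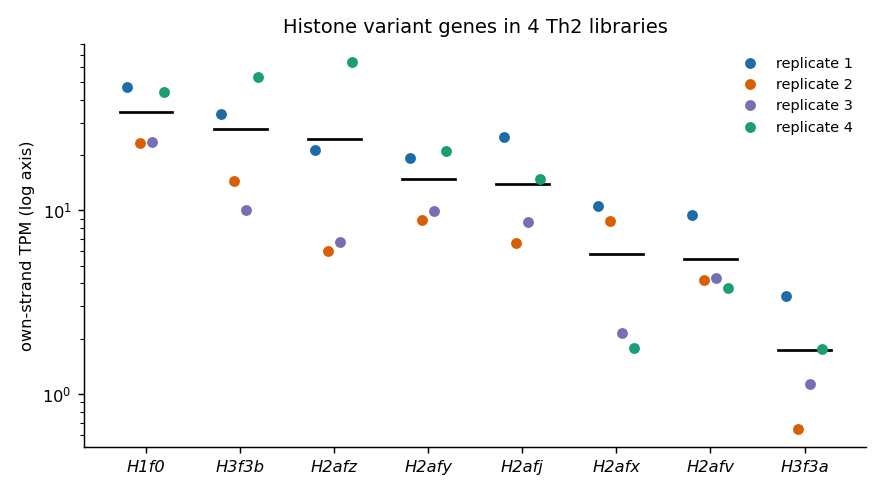
Own-strand TPM (y axis, log scale) of the 8 histone variant genes in 4 Th2 libraries, with points for libraries and a bar for the mean of each gene. H1f0 is highest by mean at 34.4 TPM and H3f3a lowest at 1.74 TPM.

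H1f0, the linker histone of slowly dividing and differentiated cells (chr15:79028212-79030498), had 125, 70, 54 and 82 counts in replicates 1 to 4. Per length this was 46.7, 23.2, 23.4 and 44.2 TPM, with a mean of 34.4 ± 12.8 TPM (SD, n = 4). It has no opposite exon. H2afy, which encodes the large variant macroH2A (chr13:56073619-56136361), had 153, 80, 68 and 116 counts, or 14.8 ± 6.23 TPM. For both genes the TPM of replicates 1 and 4 was higher than that of replicates 2 and 3, with no overlap, which is also the order of the TMM shifts given above.

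H3f3b and H3f3a encode the same replacement H3 protein, which is laid down also outside S phase. H3f3b (chr11:116021912-116027962, no opposite exon) had 116, 57, 30 and 129 counts, or 33.3, 14.5, 10.01 and 53.5 TPM. H3f3a (chr1:180800832-180813943) had 14, 3, 4 and 5 counts, or 3.41, 0.65, 1.13 and 1.76 TPM. H3f3b was above H3f3a in 4 of 4 libraries, by 3.22 ± 0.81 on the log2(TPM + 1) scale (SD, n = 4). The exact two-sided sign-flip permutation test gave p = 0.125 (0.125 after Benjamini-Hochberg adjustment over 2 pairs), the smallest p that 4 libraries allow. H3f3a faces an abundant feature on the other strand, described below with Gm17275, and H3f3b faces none.

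H2afz and H2afv encode near-identical forms of H2A.Z, the variant found next to active promoters. H2afz (chr3:137864487-137866922) had 44, 14, 12 and 92 counts, or 21.2, 5.97, 6.71 and 63.9 TPM. H2afv (chr11:6427229-6444443) had 18, 9, 7 and 5 counts, or 9.42, 4.18, 4.26 and 3.78 TPM. H2afz was above H2afv in 4 of 4 libraries, by 1.46 ± 1.56 on the log2(TPM + 1) scale, and the same exact permutation test, two-sided, gave p = 0.125 (adjusted 0.125), again the smallest possible. The gap was 3.76 in replicate 4 and 0.43 to 1.09 in the others, and without replicate 4 its mean is 0.69. The mean of H2afz also rests on replicate 4, at 24.4 TPM with it and 11.3 TPM without it. Of the windows of H2afz 64.6% were unique, and of those of H2afv 100%.

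The remaining variants were the H2A genes that carry an opposite feature. H2afj (chr6:136808244-136810074) had 54, 16, 16 and 22 counts, or 13.8 ± 8.34 TPM, with replicate 1 highest. H2afx, whose protein is phosphorylated around DNA breaks (chr9:44334694-44336077), had 17, 16, 3 and 2 counts, or 5.80 ± 4.48 TPM, and here replicates 1 and 2 were above replicates 3 and 4. No opposite exon was found for H1f0, H2afy, H3f3b, H2afz and H2afv.

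The features Gm44364 and Gm17275 had more counts than any variant, while Gm20628 and Gm44492 did not. In replicates 1 to 4 Gm44364 was counted 1632, 2065, 1417 and 809 times, and H2afj 54, 16, 16 and 22 times. Per kb of exon and over the summed counts, Gm44364 was 712 times H2afj (95% exact binomial interval 589 to 870, counting error only). On the log2(TPM + 1) scale Gm44364 minus H2afj was 9.47 ± 0.94 (SD, n = 4), and the pair did not overlap in any library. A fragment is counted for a feature that it overlaps in part, so a level per kb can run high for a feature of 141 bases. In raw counts, with no scaling by length, the sums over all libraries were 5923 for Gm44364 and 108 for H2afj, although Gm44364 is the shorter.

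Gm17275 is a lincRNA gene of 2550 exonic bases (chr1:180802568-180809483, plus strand), of which 638 lie opposite exons of H3f3a. It had 1699, 1420, 1052 and 594 counts, against 14, 3, 4 and 5 counts for H3f3a. Per kb this was 252 times H3f3a (172 to 386), and the log2(TPM + 1) difference was 7.33 ± 0.58 (SD, n = 4). H3f3aos, a second gene opposite H3f3a, shares 160 bases with it and had 0, 6, 4 and 4 counts. Of the 638 bases shared with Gm17275, 126 are coding in H3f3a. The gene-level counts do not say which bases of Gm17275 the fragments came from.

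Gm44492 had 9, 9, 2 and 2 counts, against 0, 2, 0 and 0 counts for Hist2h2ac, an H2A gene of the Hist2 cluster. With only 2 counts for the histone gene the ratio per kb, 40.6, has a counting interval of 9.97 to 356. It is 24.0 without replicate 1, and has no value without replicate 2, which holds both counts. Both are low, and the log2(TPM + 1) difference of 4.39 ± 0.96 depends on the pseudocount.

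Gm20628 (chr3:96267075-96270289, minus strand) is an antisense gene of 3215 bases that covers all of Hist2h3b and all of Hist2h2bb, an H2B gene. It had 50, 44, 16 and 16 counts, against 0, 1, 4 and 1 counts for Hist2h3b and 0 in all 4 libraries for Hist2h2bb. Its level per kb was 3.19 times that of Hist2h3b (1.42 to 8.85). This ratio rests on single libraries, at 8.35 without replicate 3, which holds 4 of the 6 counts of Hist2h3b, and at 1.92 without replicate 1. The log2(TPM + 1) difference was 1.60 ± 1.88 (SD, n = 4) and ran the other way in replicate 3, at -0.62. Of the 4 features it was the only one whose counts per kb overlapped those of its histone gene across the libraries.

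The stem-loop of the clustered genes is found in Gm20628 in reverse. Read on the strand of the feature, the 16 bases run as follows, at transcript positions 104 and 1140, and their reverse complement is the hairpin shared by 24 clustered genes.
Gm20628 hairpin: GGCTCTgaaaAGAGCC

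These copies lie at chr3:96270171-96270186 and chr3:96269135-96269150. The first starts 39 bases past the annotated end of Hist2h2bb. The other runs 9 bases past the annotated end of Hist2h3b, so the models of both genes stop short of the hairpin or within it. Neither gene is among the 41 with a hairpin in its own model.

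**Figure D3:**
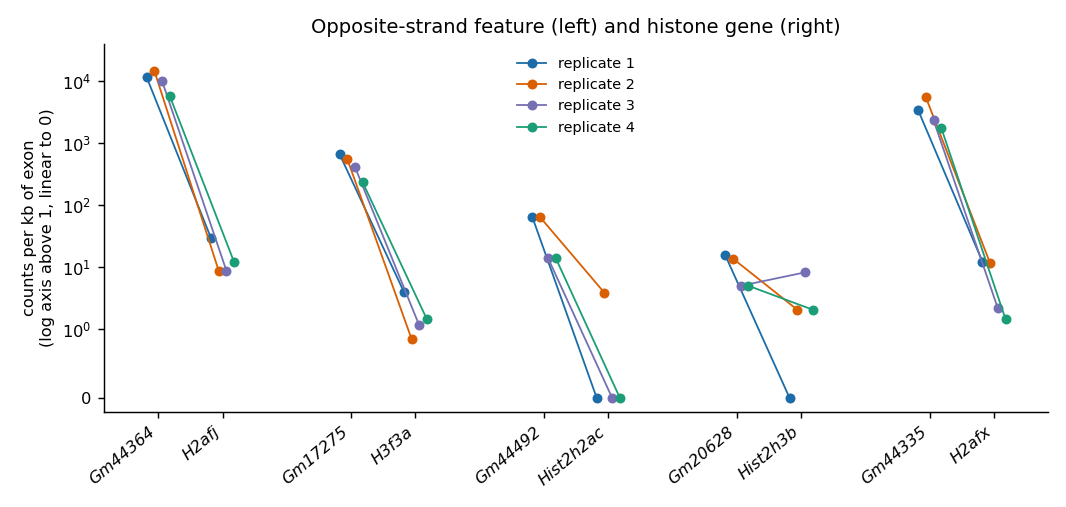
Counts per kb of exon (y axis, log scale above 1 and linear below) of each opposite-strand feature (left of each pair) and of the histone gene that it faces (right), with a line for each Th2 library. Each feature lies above its histone gene in all 4 libraries, except Gm20628, which is below Hist2h3b in replicate 3.

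The same arrangement was counted across all H2A genes. A short feature of 129 to 144 bases, annotated as miRNA, faced each of 21 H2A genes, 19 of them clustered, together with H2afj and H2afx. Of the 21, 18 lie wholly within the coding sequence. The features other than Gm44364 and Gm44492 were chosen for this geometry, with their counts known. Of the 21 features 13 had a count, against 6 of the 21 H2A genes that they face. The feature had more counts in 13 pairs and the H2A gene in 2, while both were at 0 in 6.

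Gm44335 had 484, 783, 333 and 250 counts, against 17, 16, 3 and 2 counts for H2afx. Per kb it was 478 times H2afx (347 to 677). Gm44313, 138 bases opposite Hist3h2a, had 40, 48, 25 and 9 counts, against 6, 0, 0 and 0 for the histone gene. These are the features of highest count after Gm44364, and they too were above their histone gene in every library.

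For the 19 clustered pairs the features summed to 103, 126, 43 and 46 counts in replicates 1 to 4, and the H2A genes to 7, 6, 0 and 6. Over the 4 libraries these sums are 318 counts over 11 features with a count and 19 counts over 4 H2A genes with a count. Of the 318 counts, 209 fell on the 8 features with a sequence of their own and 109 on the 11 that share theirs. The 8 features identical to Gm44394 ranged from 0 to 43 counts, although their sequence is the same. The placement of fragments among identical copies depends on bases outside the feature, and their split is uncertain.

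The exceptions were Hist2h2aa1 and Hist2h2aa2, which had 8 and 3 counts, while their features Gm47313 and Gm47311, which share a single sequence, had 0. The plot of the short features against their H2A genes shows these as the pairs with the square to the right.

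**Figure D4:**
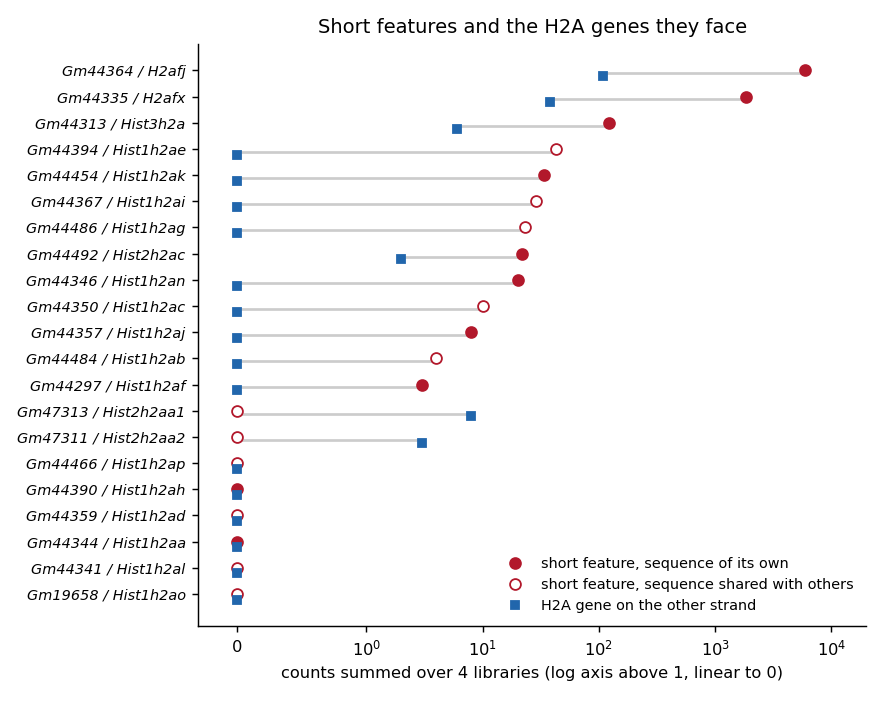
Counts summed over 4 Th2 libraries (x axis, log scale above 1 and linear below) of the 21 short features (circles) and of the H2A genes that they face (squares), with 1 pair per row. Gm44364, at 5923 counts, and Gm44335, at 1850, lie far above the features of the clustered genes, which reach at most 122.

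Outside the H2A genes an opposite exon was rare among the clustered genes. It was found for 1 of 17 H2B genes, 1 of 12 H3 genes, 1 of 13 H4 genes and 0 of 6 H1 genes. In all, 23 of the 68 clustered genes had an opposite exon, and 6 of these 23 had a count (26.1%), against 15 of the 45 without (33.3%). Over all members 30 of 80 had an opposite exon, among them the 4 features, which are in the set because they face a histone gene. The share over all genes was not tabulated, so these counts are no result about the members. The sources used here do not state which strand the library kit reads, and whether fragments of a histone gene were counted for the feature that it faces was not tested.

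The libraries differed in these genes by more than counting error. The chi-square test of each gene's 4 counts against Poisson sampling, adjusted by Benjamini-Hochberg over the 7752 genes whose mean count was 10 or more, called all 8 members that passed this filter, namely 3 features and 5 variants, while 88.2% of all tested genes were called. With 8 members tested, a share this near the background is no result about the members. No clustered gene reached the filter, nor did Gm44492, H2afx, H2afv and H3f3a.

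The order of the libraries was not the same for features and variants. Relative to the mean of the 4 libraries in log2 CPM, Gm44364 was at 0.04, 0.32, 0.14 and -0.49 in replicates 1 to 4, and Gm17275 at 0.44, 0.12, 0.04 and -0.60. Both were lowest in replicate 4. H3f3b was at 0.53, -0.56, -1.13 and 1.16, and H2afz at 0.44, -1.28, -1.14 and 1.98, both highest in replicate 4. H1f0, H2afy and H2afj were above their mean in replicates 1 and 4 and below it in replicates 2 and 3. These values are scaled by total counts only. With the TMM size factors of the edgeR fit described below, the log2 fold change of replicate 4 against the others was 0.13 for H1f0, 0.35 for H2afy and -0.20 for H2afj. Gm20628 had its high values in replicates 1 and 2, at 0.69 and 0.44, and its low values in replicates 3 and 4, at -0.66 and -0.47.

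**Figure D5:**
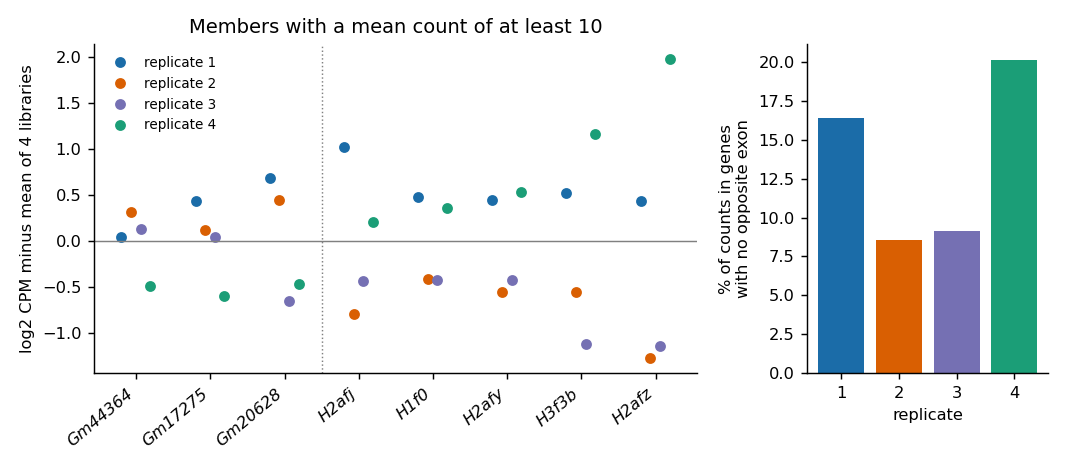
Left, log2 CPM minus the mean of the 4 Th2 libraries (y axis) for the 8 members whose mean count was 10 or more, features left of the dotted line and variants right of it. Right, percentage of each library's counts on genes without an opposite exon. Replicate 4 is lowest for Gm44364 and Gm17275, highest for H3f3b and H2afz, and has the largest such percentage, 20.1%.

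Each library was also tested against the other 3 by the quasi-likelihood test of edgeR, with Benjamini-Hochberg adjustment over the 7752 genes. None of the 8 members was called in any library by edgeR (0 of 8), and none by DESeq2 (0 of 8). The share of all tested genes called by edgeR was 0% for replicate 1, 0.0129% for replicate 2, 0.0387% for replicate 3 and 0% for replicate 4, and by DESeq2 0%, 0.0129%, 0% and 0%. At an unadjusted p under 0.05, both tools listed 0 members for replicates 1, 2 and 3 and 3 for replicate 4. For replicate 4 this was 3 of 8 members, beside 8.81% of all 7752 genes by edgeR and 8.76% by DESeq2, a count too small to read. The 3 were H2afz, with a log2 fold change of 2.16 in replicate 4 against the others (edgeR adjusted p = 0.57), Gm17275 at -1.12 (adjusted p = 0.57) and Gm44364 at -0.99 (adjusted p = 0.57). A comparison of 1 library with 3 describes these libraries and not a condition.

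Genes that act on histones or mark cycling cells were set beside the members, as 4 lists. Of 16 genes of histone mRNA processing and transcription, 13 had a count in all 4 libraries, with list medians of 6.04, 2.23, 1.23 and 7.08 TPM in replicates 1 to 4. Snrpd3, which encodes an Sm protein shared with the spliceosome, had 22.3 ± 12.3 TPM (SD, n = 4). The cleavage and polyadenylation factors Cpsf3, the endonuclease that also cuts histone pre-mRNA, and Cpsf2 had 17.6 ± 13.8 and 14.5 ± 1.45 TPM. Lsm11, a protein of the U7 particle, was lowest, with 1, 4, 0 and 0 counts. Slbp, named here after its values were seen because it binds the hairpin, had 52, 13, 3 and 28 counts, or 3.78 ± 3.24 TPM. The chi-square test called 8 of its 12 tested genes, beside 88.2% of all tested genes. Here and for the lists that follow, such counts are near or below that background and are no result about the list.

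Of 17 histone chaperones, 15 had a count in every library, with list medians of 9.95, 3.09, 3.70 and 21.2 TPM. Npm1, a nucleolar chaperone, had 456 ± 307 TPM, Ssrp1, a subunit of the FACT complex, 51.5 ± 39.0 TPM, and Nap1l1, which carries H2A and H2B, 43.5 ± 29.7 TPM. Hira, which lays down the replacement H3 protein, was lowest, with 12 counts in replicate 1 and 0 in the others. The chi-square test called 12 of 15 tested genes, beside the background of 88.2%.

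All 15 genes of S phase and proliferation had a count in every library, with list medians of 18.8, 4.22, 4.24 and 33.2 TPM, higher in replicates 1 and 4. Ccna2, the cyclin of S phase and G2, had 138 ± 23.7 TPM and has an opposite exon. Pcna, the sliding clamp of the replication fork, had 34.9 ± 21.04 TPM, and Mki67, a marker of cycling cells, 29.8 ± 22.1 TPM. Ccnb1, a mitotic cyclin, was lowest at 3.22 ± 2.24 TPM. The chi-square test called 13 of 15 tested genes (background 88.2%). In bulk samples fewer cells of a kind and less RNA per cell cannot be told apart.

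Of 6 other histone variants, 2 had a count in every library. H2afy2, a second macroH2A gene with an opposite exon, had 9.31 ± 1.60 TPM, and Cenpa, the H3 variant of centromeres, 4.33 ± 2.21 TPM. H1fx, a linker histone, had 1.84 ± 1.69 TPM. H2afb1 was at 0 in all libraries. The chi-square test called 1 of 2 tested genes, against 88.2% of all tested.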

How the data were processed

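For each of 4 Th2 libraries the authors deposited raw counts of fragments per gene. Per the file headers, these counts were made with featureCounts 1.4.6-p4, with paired fragments over exons, both ends mapped, strand option 1, no multi-mapping fragments, no assignment to overlapping genes, annotation GENCODE M13 and assembly mm10. An aligner version was not given in the sources used here.

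Symbols came from GENCODE M21 by identifier (50376 of 50600 matched), and transcript sequences from the same release. It has the same build as M13, but its transcripts can be longer than the exons counted. TPM, CPM and counts per kb were computed from the counts and the exon lengths in the files. Exons of at least 1 shared base on the other strand counted as opposite (bedtools 2.31.1). Differences between genes were taken as log2(TPM + 1) within each library, and tested for 2 pairs of variants with an exact sign-flip permutation test (scipy 1.17.1). Spread between libraries was tested for genes whose mean count was 10 or more, with TMM size factors, by a chi-square test of Poisson sampling and by edgeR 4.0.16 (quasi-likelihood, 1 library against 3), with DESeq2 1.42.0 as the alternative, at an adjusted p of 0.05 (R 4.3.3, Python 3.11.15). The scripts were tested on simulated data. The total count per library ran from 1274431 to 1857433, and intervals at 95% cover counting error only. The spread is that of the 4 libraries, which share a donor identifier.

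All 8 variants and 4 features are named, as are the 10 clustered genes of highest total, and of each pathway list the 3 highest members and the lowest by mean TPM. The members, gene lists, pairs and tests were chosen with earlier results of these data known. Alternatives were a pseudocount of 0.1, FPKM, a minimum of 5 counts, other size factors, no filter, members without an opposite exon, and leaving out each library. A cell type marker of the lists is not reported here.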

Additional observations from a re-analysis of the deposited data

Results flagged for a closer look

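Of 31 members, partners and differences between genes checked for a library far from the rest, 5 gave a gap between an extreme library and its nearest neighbour above the 95% limit of Dixon's criterion, given as a share of the whole range, which chance exceeds in about 1 of 20 groups. H2afv, an H2A.Z gene, had a share of 0.851 in CPM, with replicate 1 at 10.1 CPM and the others at 3.92 to 4.85 CPM. Hist1h4b, Hist3h2a, Hist1h3c and Hist1h4c each had a share of 1. This holds by construction, since all of their 7, 6, 5 and 3 counts fell in a single library and the other libraries are tied at 0, so the number of such genes cannot be read against that chance rate.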

How the results depend on the processing

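Of 130 alternative values, 69 for the comparisons and 51 for single genes kept their direction and call or stayed within the spread. A pseudocount of 0.1 in place of 1 moved the clustered minus variant median to -6.92, Gm17275 minus H3f3a to 8.03 and Gm44492 minus Hist2h2ac to 6.93, with the same signs. With a minimum of 5 counts, 4 clustered genes were detected in place of 21 and 6 variants in every library in place of 8. With no filter on low counts, under which more members are tested, 13 members in place of 8 exceeded Poisson sampling. The share of all genes called without the filter, or with a library left out, was not tabulated, so such numbers are no result about the members. Leaving out each library in turn gave 16 to 19 clustered genes with a count, a clustered minus variant median of -3.91 to -3.48, Gm20628 minus Hist2h3b of 0.85 to 2.34, H2afz minus H2afv of 0.69 to 1.80, and 6 to 8 members beyond Poisson sampling. Single chi-square calls were lost for Gm17275 without replicate 4 (adjusted p = 0.085), for H2afj without replicate 1 (0.48), and for H1f0 without replicate 1 (0.20), without replicate 3 (0.065) or with median-of-ratios factors (0.10). The cause was not tested. No paired analysis was possible between groups because all 4 libraries belong to a single group. Differences between genes were taken within each library. At this depth a count of 0 in a library allows up to 3 counts, so clustered genes with no count are not shown to be absent.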
